A study of Mus musculus with 15 samples.

Results

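The cells described here carried transcripts of at least 2 of the 5 genes *Eomes*, *Tdgf1*, *Mixl1*, *Lhx1* and *Gsc*, and none of *Sox17*, *Noto* or *Hbb-bh1*, in the 5 late embryos of the series (late E7.5 and E7.75, 4 control and 1 *Mesp1* KO). The rule found 2680 such cells among 70196 retained cells of the late embryos, and 93701 cells were retained in all 15 embryos. The cells were thus chosen on their measured transcripts, so the presence of the 5 genes in them and the absence of the other 3 are not results. They are called streak-marker cells below, because the name streak-like held in only some of the embryos. In mm10 the 5 genes are *Eomes* (chromosome 9, 118478212 to 118486132), *Tdgf1* (chromosome 9, 110939603 to 110946158), *Mixl1* (chromosome 1, 180693043 to 180697034), *Lhx1* (chromosome 11, 84518284 to 84525535) and *Gsc* (chromosome 12, 104471209 to 104473330).

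The primitive streak is the posterior region of the gastrulating embryo where epiblast cells lose their epithelial character and move inwards as mesoderm and endoderm. Nodal signalling, with its co-receptor Tdgf1 (Cripto), switches on *Eomes*, a T-box transcription factor, and the homeobox genes *Mixl1*, *Lhx1* and *Gsc*, the last of these in the anterior streak and its mesendoderm. *Eomes* acts upstream of *Mesp1*, the transcription factor of the earliest cardiac mesoderm, and these early streak genes normally fade as gastrulation ends. *Lhx1* is later used again in lateral mesoderm and *Tdgf1* in the forming heart. *Sox17* marks endoderm, *Noto* the node and notochord, and *Hbb-bh1* primitive red blood cells.

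Each embryo was dissociated whole, with yolk removed from the older ones, and sequenced as its own droplet scRNA-seq library from the 5′ ends of transcripts, with a unique molecular identifier (UMI) per captured molecule. *Mesp1* KO embryos were *Mesp1* Cre/Cre, with Cre inserted in place of *Mesp1* on both alleles, and control embryos kept at least 1 wild-type *Mesp1* allele (*Mesp1* Cre/+ or +/+). Embryos of both genotypes carried the *Smarcd3*-F6::eGFP transgene at Hipp11, an enhancer reporter of cardiac progenitor cells driven from a minimal promoter, and the *Rosa26R* Ai14 reporter of Cre activity, which late E7.5 control replicate 1 and the early E7.5 control lacked. The late KO embryo was staged late E7.5, and the controls were 2 late E7.5 and 2 E7.75 embryos. For comparison the series holds middle embryos, namely 1 control each at early E7.5, E7.0 and late E6.5 and an E7.0 KO, and early embryos of E6.0 to E6.5. All embryos were labelled as whole embryos of the C57/BL6 strain. The study set out to learn which steps of heart formation still proceed without *Mesp1*.

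*Mesp1* (chromosome 7, 79792241 to 79793788) gave 5 UMIs in the whole late KO library against 283 to 8194 in the 4 late control libraries, in accord with the labels. The late libraries held between 51599340 and 379177866 UMIs. The KO embryo and E7.75 control replicate 1, both of experiment 5, were shallow, with a median of 3827 and 3926 UMIs per cell, and the other 3 had between 14063 and 19739. Pairs of late libraries shared between 1.71% and 3.65% of the cell barcodes of the smaller one. Experiments also differed in single genes. *Rac1* in the streak-marker cells stood at 390 and 405 counts per 1000000 counts (CPM) in the 2 late controls of experiment 7 and at 46.9 to 103 CPM in the 3 late libraries of experiments 4 and 5, and *Grsf1* at 618 and 642 against 39.9 to 57.4 CPM. The KO embryo has a single late companion from its own experiment, so genotype and experiment can be compared only with that shallow control.

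Streak-marker cells were a larger share of the late KO embryo than of each late control. Without correction for depth they made up 14.2% of KO cells (1820 of 12853, exact interval 13.6% to 14.8%). In late E7.5 control replicate 1 they were 6.91% (468 cells), in late E7.5 control replicate 2 0.435% (97 cells), and in E7.75 control replicate 2 2.07% (278 cells). In the shallow E7.75 control replicate 1 they were 0.114% (17 of 14884 cells, 0.0665% to 0.183%), although its depth matched that of the KO embryo. The KO embryo was the highest of the 5 even though its cells were the shallowest.

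Because a deeper cell shows a marker more often, all cells were thinned at random to 2000 UMIs and shallower cells left out. The KO share was then 10.0% (1073 of 10727 cells, 9.44% to 10.6%). The late E7.5 controls held 0.309% (20 of 6475 cells, 0.189% to 0.477%) and 0.0427% (8 of 18714, 0.0185% to 0.0842%). The E7.75 controls held 0.0487% (6 of 12329, 0.0179% to 0.106%) and 0.0395% (5 of 12662, 0.0128% to 0.0921%). The KO share was 32.4 times that of the highest control and 206 times that of the shallow control of the same experiment. The KO minus control difference was 9.89 percentage points (control mean 0.110% ± 0.133, SD, n = 4), with an exact permutation test over embryos, two-sided, giving p = 0.2, the smallest that 1 against 4 embryos allows. The intervals cover counting error within an embryo only, and the single KO embryo gives no spread between KO embryos.

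**Figure D1:**
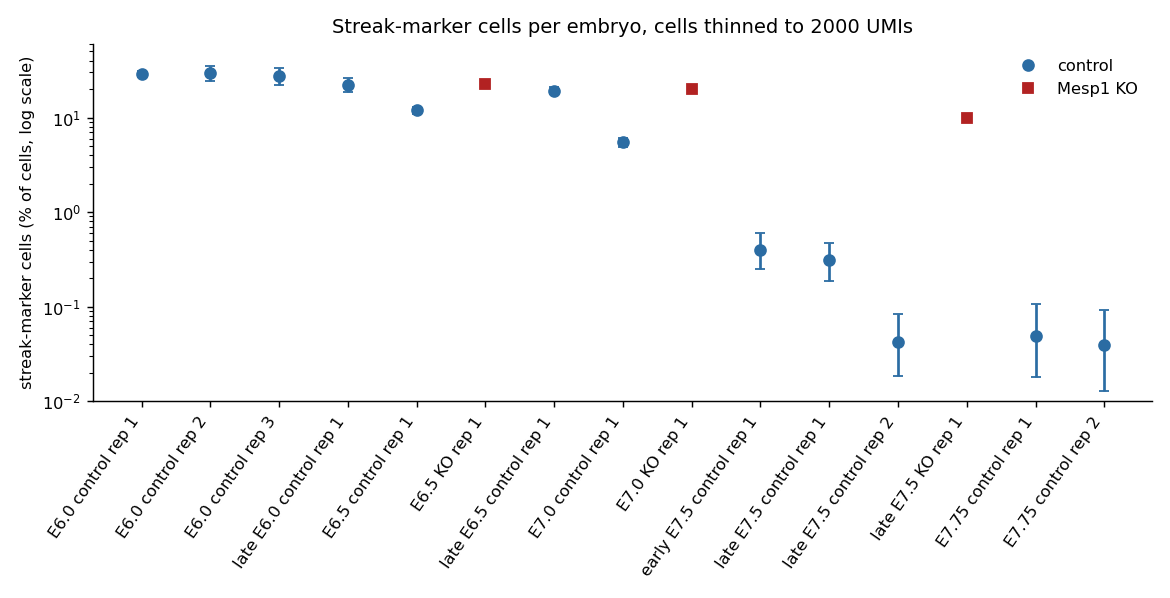
Streak-marker cells as a percentage of cells (log axis) in each of the 15 embryos, ordered by age, on cells thinned to 2000 UMIs, with exact 95% intervals; circles are control and squares *Mesp1* KO embryos. Control shares fell from 19.3% at late E6.5 to 0.0395% to 0.309% in late embryos, while the late KO embryo stood at 10.0%.

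The KO share was also the highest with a stricter rule. With at least 3 of the 5 markers on thinned cells the KO embryo had 2.99% against 0.0309% in late E7.5 control replicate 1 (2 cells, 0.00374% to 0.112%) and none in the other 3 controls, where a count of 0 allows shares of 0.0160% to 0.0243%. The KO share was then 96.9 times that of the highest control, a ratio that rests on those 2 control cells. With at least 4 markers 65 thinned KO cells and no late control cell qualified. With at least 2 markers and a *T* UMI the thinned shares were 2.40% in the KO (257 cells), 0.263% in late E7.5 control replicate 1 (17 cells, 0.153% to 0.420%) and 0.00534% to 0.00811% in the other 3 controls (1 cell each). Without thinning, 337 KO cells carried 4 or 5 markers against 4 cells in late E7.5 control replicate 1 and none in the other controls. Just outside the rule, with a single marker and no exclusion gene, were 1530 of 10727 thinned KO cells. In late E7.5 control replicates 1 and 2 there were 476 of 6475 and 524 of 18714. In E7.75 control replicates 1 and 2 there were 370 of 12329 and 550 of 12662. Of 1214 thinned KO cells with at least 2 markers the exclusion genes removed 141, and 80 of those removed held *Sox17*. They removed 9 of 29 and 2 of 10 such cells in late E7.5 control replicates 1 and 2. In E7.75 control replicates 1 and 2 they removed 0 of 6 and 1 of 6.

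Free RNA in droplets can place transcripts in cells that do not express them, so cells that should lack the streak genes were examined. Of thinned KO cells with at least 2 erythroid genes, 0 of 174 carried 2 streak markers, with an exact upper bound of 2.10%, against 11.3% of all thinned KO cells. The median depth before thinning was 6257 UMIs in the erythroid cells and 4203 UMIs in all cells. Of those with at least 2 endothelial genes, 2 of 71 did (2.82%, 0.342% to 9.81%). In the 4 late controls 0 of 17 to 733 erythroid and 0 of 34 to 437 endothelial cells did. Without thinning, as in the expression comparisons, 5.29% of the endothelial cells of the KO embryo carried 2 markers against 18.0% of all its cells. In late E7.5 control replicate 1 4.48% of endothelial (2.83% to 6.71%) and 3.55% of erythroid cells (1.31% to 7.57%) did, against 8.88% of all its cells. In late E7.5 control replicate 2 the endothelial shares were 0.943% (0.569% to 1.47%) against 1.10%, and in E7.75 control replicate 2 2.43% (1.53% to 3.66%) against 3.21%, at median depths of 26385 against 14063 and 29566 against 19573 UMIs. In the erythroid cells of those 2 controls the shares were lower, at 0.312% (0.101% to 0.727%) and 0.707% (0.0857% to 2.53%), with median depths of 27093 and 35150 UMIs. The unthinned share of cells with 2 markers was thus above that in erythroid cells in both controls, and within the interval of that in endothelial cells.

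The same rule was applied to the younger embryos. On thinned cells of the controls the share was 22.1% to 29.5% at E6.0 and late E6.0, 11.96% at E6.5 (439 of 3671), 19.3% at late E6.5 (392 of 2030), 5.50% at E7.0 (285 of 5185) and 0.401% at early E7.5 (22 of 5490), so that it was lower at each age after late E6.5, but lower at E6.5 than at late E6.5. All 4 late controls lay below all 3 middle controls, by 8.29 percentage points on average (exact permutation test over embryos, two-sided, p = 0.0286, the smallest that 4 against 3 embryos allows). With at least 3 markers the exact permutation p was 0.0571, and the groups overlapped. The 3 middle controls were all of experiment 7, and the late ones of experiments 4, 5 and 7. The E7.0 KO embryo held 20.2% and the E6.5 KO embryo 22.4%, and the late KO share lay between those of the late E6.5 and E7.0 controls. This placement depends on thinning, since without it the late KO embryo, at 14.2%, lay below the late E6.5 (38.5%) and E7.0 (28.0%) controls and above the early E7.5 control (7.05%). The early E7.5 and the late E7.5 replicate 1 controls, 0.401% and 0.309%, had overlapping intervals.

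The 5 markers were not used alike in the embryos. In the KO embryo 83.2% of the streak-marker cells carried *Tdgf1*, 62.8% *Eomes*, 54.7% *Lhx1*, 44.5% *Mixl1* and 25.5% *Gsc*, and the most frequent set was *Eomes* with *Tdgf1* alone (308 cells, 16.9%). In late E7.5 control replicate 1 *Mixl1* led with 69.4%, and *Tdgf1* was in 34.6%. In E7.75 control replicate 2 *Tdgf1* was in 6.47% and *Eomes* in 14.7%, and *Mixl1* with *Lhx1* alone made up 53.2% of the cells. In late E7.5 control replicate 2 and E7.75 control replicate 1 the leading sets were *Lhx1* with *Gsc* or with *Tdgf1*, and *Eomes* was in 21.6% and 11.8%. *Eomes*, the early streak gene, was thus most frequent in the KO cells and *Lhx1* led in late E7.5 control replicate 2 and both E7.75 controls. These shares are set by the rule and by depth and carry no test.

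**Figure D2:**
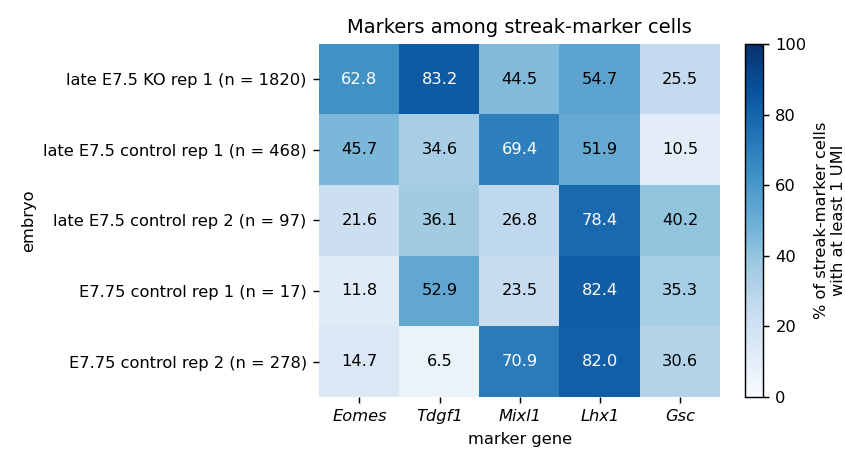
Percentage of streak-marker cells with at least 1 UMI of each of the 5 rule genes, by late embryo, all UMIs used; n is the number of streak-marker cells. *Tdgf1* (83.2%) and *Eomes* (62.8%) led in the KO embryo, and *Lhx1* (78.4% to 82.4%) in 3 of the 4 controls.

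The label was checked with genes the rule did not use, on counts summed over the streak-marker cells of an embryo. *T*, which encodes Brachyury, stood at 148 CPM in KO streak-marker cells against 39.4 CPM in the other KO cells, at 626 against 133 CPM in late E7.5 control replicate 1 and at 113 against 67.2 CPM in E7.75 control replicate 2. In late E7.5 control replicate 2 it stood at 32.8 against 31.1 CPM. In the shallow E7.75 control replicate 1 it stood at 68.9 against 30.4 CPM on 6 UMIs, all in 1 of its 17 streak-marker cells. *Evx1*, a posterior streak gene, followed the same order, with 65.6, 75.0 and 60.7 CPM in the first 3 embryos and 4.69 CPM in late E7.5 control replicate 2. Summed over 20 streak genes, the streak-marker cells reached 801 CPM against 277 CPM in other KO cells, 2519 against 830 and 1525 against 971 CPM in those 2 controls, and 525 against 471 and 529 against 473 CPM in late E7.5 control replicate 2 and E7.75 control replicate 1. The summed streak genes were thus clearly higher than in the other cells in 3 embryos and close to them in the other 2. In E7.75 control replicate 2 other lists were also higher in the streak-marker cells, with 20 cardiac genes at 1218 against 602 CPM and 14 presomitic and paraxial genes at 2686 against 1250 CPM. At 2000 UMIs 1 of its 5 streak-marker cells held *T*, as did 257 of 1073 in the KO and 17 of 20 in late E7.5 control replicate 1. The label thus held only in part in E7.75 control replicate 2. In the KO it rests on summed levels, since most of its thinned streak-marker cells held no *T* UMI.

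In those other 2 controls part of the cells carried heart muscle genes. *Tnnt2*, cardiac troponin T, stood at 731 CPM in late E7.5 control replicate 2 (45.8 CPM in its other cells) and at 1517 CPM in E7.75 control replicate 1 (89.3 CPM). It stood at 1.21 CPM in the KO, 0.871 CPM in late E7.5 control replicate 1 and 55.4 CPM in E7.75 control replicate 2. At least 2 of the 5 sarcomere genes *Tnnt2*, *Actc1*, *Ttn*, *Myl4* and *Myh6*, a set chosen after the values were seen, were present in 34.0% (33 of 97) and 41.2% (7 of 17) of the streak-marker cells of the first pair, against 0.275%, 3.42% and 7.91% in the KO, late E7.5 control replicate 1 and E7.75 control replicate 2. At 2000 UMIs they were present in 4 of 8, 4 of 6, 1 of 1073, 0 of 20 and 2 of 5 cells. Of the unthinned streak-marker cells of that pair, most held fewer than 2 of these genes. The streak-marker cells of late E7.5 control replicate 2 and E7.75 control replicate 1 thus go against the label, and comparisons that rest on them are also given without them. Leaving out cells with 2 sarcomere genes, the thinned KO share was 9.99% and the control mean 0.0925%. Without those 2 controls the KO minus control difference was 9.83 percentage points (exact permutation p = 0.333, the smallest that 1 against 2 embryos allows), and late controls lay 8.23 percentage points below middle ones (exact permutation p = 0.2, where 0.1 was the smallest possible).

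Late E7.5 control replicate 1 and E7.75 control replicate 2 were also compared with the KO for presomitic genes. At least 2 of the 5 presomitic genes *Msgn1*, *Tbx6*, *Dll1*, *Dll3* and *Hes7*, which drive the making of somite precursors, were found in 73.5% of the streak-marker cells of late E7.5 control replicate 1 and 65.8% in E7.75 control replicate 2, against 12.4% in the KO embryo. The median depth of those cells was 24588, 28240 and 4381 UMIs, so the share is not comparable across these depths. At 2000 UMIs it was 67 of 1073 KO cells (6.24%), 9 of 20 and 1 of 5 cells in the KO, late E7.5 control replicate 1 and E7.75 control replicate 2.

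**Figure D3:**
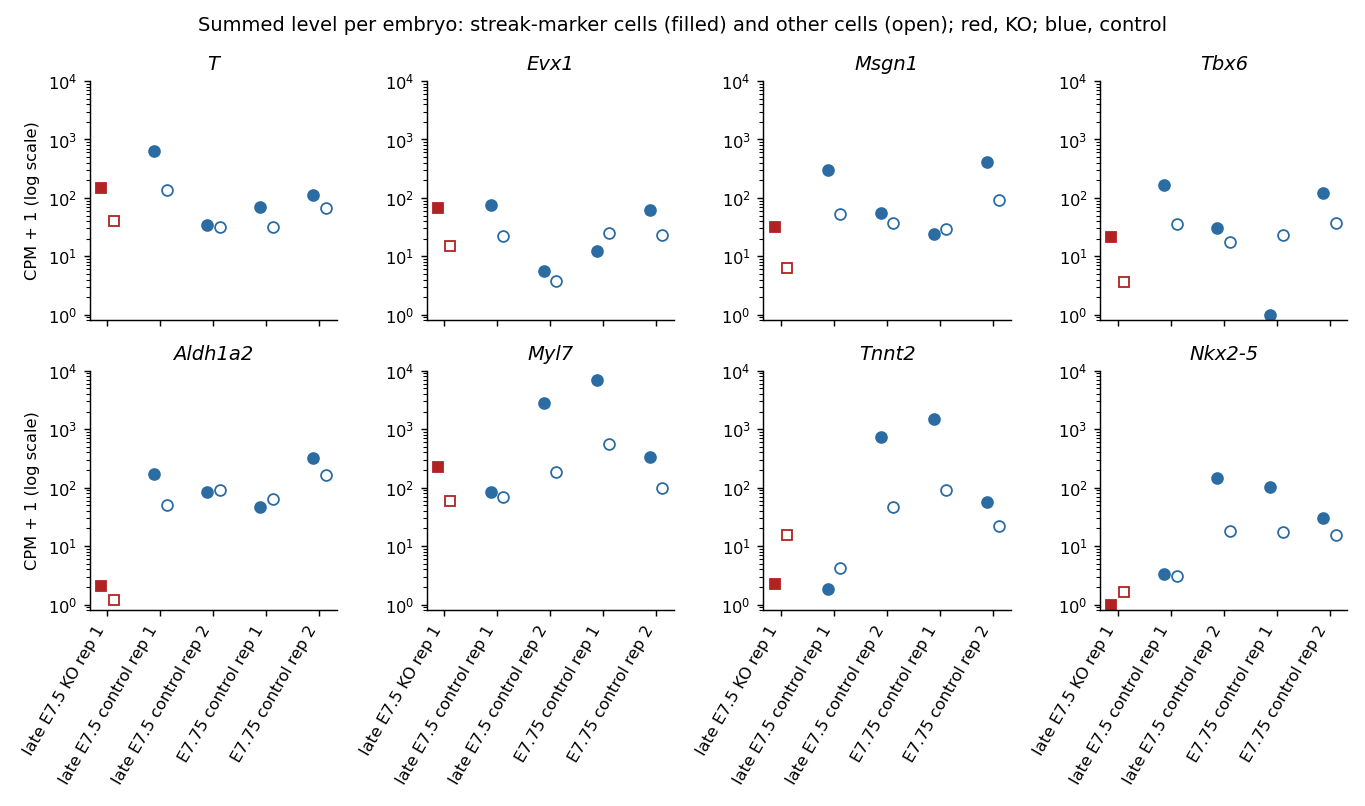
Level (CPM + 1, log axis) of 8 genes in the streak-marker cells (filled) and the other cells (open) of each late embryo, from summed counts; squares are the KO and circles the controls. *T* and *Evx1* lie above the other cells in the KO, late E7.5 control replicate 1 and E7.75 control replicate 2, and *Tnnt2* reaches 731 and 1517 CPM in the other 2 controls.

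Summed markers of several other cell types were lower in streak-marker cells than around them, and those of others were not. The 12 visceral endoderm genes summed to 590 CPM against 5272 CPM in other KO cells, and were lower gene by gene in the KO, late E7.5 control replicate 1 and E7.75 control replicate 2. In the shallow control 7 of the 12 were at 0 and the sum was 57.4 against 1571 CPM, while in late E7.5 control replicate 2 they summed to 5191 against 4992 CPM. The 12 blood genes, which include an exclusion gene, summed to 11.5 to 89.7 CPM in all 5 embryos. The 14 extra-embryonic ectoderm and chorion genes, of interest because that tissue uses *Eomes*, summed to 95.1 against 300.4 CPM in the KO and to 469 against 509 CPM in late E7.5 control replicate 2. They summed to slightly more than in the other cells of both E7.75 controls, at 138 against 131 and 306 against 281 CPM. In late E7.5 control replicate 2, 26.8% of the streak-marker cells and 20.8% of the other cells held 2 of 9 such genes, and in the KO 0.220% and 2.05% did. At 2000 UMIs the streak-marker cells gave 0 of 8 and 1 of 1073. The 10 primordial germ cell genes summed higher in streak-marker cells in all 5 embryos, at 719 against 495 CPM in the KO, although only 1 to 4 of the 10 were higher. The 10 node and notochord genes summed to 77.7 against 54.0 CPM in the KO, with 6 higher. Cells scored as likely doublets were 34.0% of the streak-marker cells in late E7.5 control replicate 2 and 12.1% in the KO, against 17.8% and 10.3% of all their cells. In E7.75 control replicate 2 they were 17.6% against 10.7%, and in late E7.5 control replicate 1 6.62% against 5.41%. In the shallow control they were 5.88% against 11.9%.

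Expression in the streak-marker cells was then compared between the late KO embryo and the 4 late controls, with counts summed per embryo and edgeR's quasi-likelihood test. Few genes passed. Of 13048 genes tested 2 passed (0.0153%) at an adjusted p under 0.05, of which 1 was higher (0.00766%) and 1 lower (0.00766%), and 1468 genes (11.3%) had an unadjusted p under 0.05. The KO level lay outside the range of the 4 controls in 34.6% of the genes. The controls differed among themselves as described, which enters this test. Membership was called on all UMIs, at a median of 4381 UMIs in the KO streak-marker cells and 24588 to 28240 in the deeper controls. At least 3 markers were held by 48.6% of the KO cells and by 3.09% to 11.1% in the controls. The rule markers summed to 1138 CPM in the KO and to 131 to 222 CPM in the deeper controls. What this unlike selection adds to the gene differences was not tested. With the experiment as a term, a choice made after seeing the data that sets the KO against the shallow control of its own experiment, 0 genes passed by edgeR (0%), and 1385 had an unadjusted p under 0.05. The shallow control adds 17 cells and 87035 UMIs, in which 1 UMI is worth 11.5 CPM and a count of 0 allows 34.5 CPM. Counts of genes with the KO above all 4 controls use the listed values, and so include genes at 0 in that library whose KO level is under 34.5 CPM, for which that order is not resolved. Orders that rest on 1 UMI there, 11.5 CPM, are no firmer.

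The gene that passed as higher was *Optc* (chromosome 1, 133897199 to 133907999), encoding the extracellular matrix protein opticin, at 13.8 CPM in the KO and at 0.435, 0.391, 0 and 0.393 CPM in the controls (log2 fold change 5.60 ± 0.49, SE, edgeR adjusted p = 0.0371). The 0 of the shallow control carries no weight, since it allows more than the KO level, and *Optc* rests on 3 controls. The call was lost with doublets left out (edgeR adjusted p = 0.0834), with late E7.5 controls only (0.331), without E7.75 control replicate 2 (0.127) and with the experiment as a term (0.515). *Optc* was also not among the 44 genes that DESeq2 called.

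The genes next in order were not called. Among the higher were *Upp1*, uridine phosphorylase, at 233 CPM against 23.0 to 50.8 CPM in controls, *Cyp26a1*, which degrades retinoic acid, at 160 CPM against 0 to 22.5 CPM, *Samd5* at 9.31 CPM against 0 to 0.522 CPM, and *Ndufa4l2* at 65 CPM against 6.18 to 11.7 CPM (edgeR adjusted p = 0.0546 for each). *Cyp26a1* was at 0 in the shallow control, which puts the KO at least 4.65-fold higher than the 3 UMIs allowed there. *Car2*, carbonic anhydrase, at 165 CPM against 21.2 to 46.0 CPM, had an adjusted p of 0.0718. For *Upp1*, *Cyp26a1*, *Ndufa4l2* and *Car2* the KO lay above all 4 controls, and for *Samd5*, at 0 in the shallow control, it lay above the other 3. *Ndufa4l2* was as high in the other KO cells, at 58.7 CPM. Among the lower, *Gm15051*, an uncharacterised locus, had 4.83 CPM against 100.1 to 138 CPM (edgeR adjusted p = 0.0546), and *Crabp2*, *Phlda3*, *Hoxa2* and *Hoxb4* had adjusted p between 0.157 and 0.163.

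Hox genes were low in the KO cells as a group. All 21 Hox genes tested had a negative log2 fold change, with a median of −4.74 beside −0.03 over all genes tested. In 15 of the 21 the KO level lay below all 4 controls, against 26.1% of all genes tested. *Hoxb4* had 1.09 CPM in the KO and 24.0, 19.15, 34.5 and 45.0 CPM in the 4 controls. *Hoxb1* had 13.5 CPM against 342, 54.3, 34.5 and 167 CPM, and *Hoxa2* 0.121 CPM against 7.03 to 21.5 CPM. The caudal genes, regulators of Hox genes and of the posterior body, lay the same way, with *Cdx1* at 5.56 CPM against 46.0 to 322 CPM and *Cdx2* at 11.6 CPM against 80.4 to 294 CPM, and neither passed (edgeR adjusted p = 0.247 and 0.198).

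Presomitic and paraxial mesoderm genes had a median log2 fold change of −1.94 and 0 of 14 passed. Against the other cells of the same embryos the list's median was 0.77. *Aldh1a2*, which makes retinoic acid, stood at 1.09 CPM in the KO against 171, 84.0, 46.0 and 324 CPM, and *Hes7*, the somite clock repressor, at 0.846 CPM against 104, 26.6, 34.5 and 125 CPM. The KO lay below all controls in 7 of the 14, against 26.1% of all genes tested. *Msgn1* (31.2 CPM against 23.0 to 418 CPM) and *Tbx6* (20.4 CPM against 0 to 163 CPM) did not separate the genotypes.

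Anterior mesendoderm genes, the genes of the anterior streak and its derivatives, had a median of 2.07 and 0 of 11 passed, with the KO above all 4 controls in 8 of the 11 against 8.49% of all genes tested. For 3 of the 8 the shallow control was at 0 and the KO under what that allows. *Foxa2*, which specifies endoderm and axial mesoderm, stood at 20.1 CPM against 2.49 to 11.5 CPM, *Otx2*, an anterior regulator, at 45.6 CPM against 11.5 to 19.8 CPM, and *Dkk1*, a secreted Wnt inhibitor, at 111 CPM against 0 to 44.0 CPM. The 11.5 CPM of *Foxa2* and of *Otx2* is 1 UMI of the shallow control, so neither order is set there. On all UMIs the exclusion genes left out 488 KO cells beside 1820 kept. They left out 133 and 148 beside 468 and 97 in late E7.5 control replicates 1 and 2. In E7.75 control replicates 1 and 2 it was 1 and 153 beside 17 and 278. What this adds to the list was not tested. The other KO cells held 17.0 CPM of *Foxa2* and 44.2 CPM of *Otx2*, about the level of the streak-marker cells, whereas *Dkk1* stood there at 33.0 CPM.

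Streak genes outside the rule went both ways, with 9 of 19 higher and 10 lower in the KO, a median of −0.16 and 0 called. Their summed level in the KO, 801 CPM, lay below late E7.5 control replicate 1 and E7.75 control replicate 2 (2519 and 1525 CPM) and above the other 2 (525 and 529 CPM). *T* ranged from 32.8 to 626 CPM among controls, with the KO at 148 CPM inside that range. *Wnt3*, the posterior Wnt ligand that starts the streak, stood at 37.8 CPM against 0.391 to 11.5 CPM in controls (edgeR adjusted p = 0.256). The 11.5 CPM is 1 UMI of the shallow control, so the order against that library is not resolved. *Wnt3a*, the later relative of *Wnt3*, stood at 2.54 CPM against 0 to 68.5 CPM. *Nodal* stood at 19.5 CPM in the KO and 3.66, 5.47, 46.0 and 0 CPM in controls, the groups overlapping through the shallow library, where it rests on 4 UMIs. *Cfc1*, a co-receptor related to *Tdgf1*, stood at 77.0 CPM against 46.0 to 66.5 CPM.

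In the Nodal, Wnt and FGF pathway lists 0 of 17, 0 of 21 and 0 of 17 genes passed, with medians of −0.11, −0.41 and −0.23. *Fgf5*, a ligand of the primed epiblast, stood at 43.0 CPM in the KO against 4.96, 0.391, 0 and 2.49 CPM (log2 fold change 4.46 ± 0.67, SE, edgeR adjusted p = 0.155), and *Fgf10* at 24.9 CPM against 0 to 9.03 CPM. *Fgf8*, which drives cells out of the streak, overlapped with 128 CPM against 59.4 to 149 CPM. Among 19 epiblast and pluripotency genes 0 passed. *Nanog* stood at 32.2 CPM against 16.5, 0, 11.5 and 0.916 CPM in controls, where the shallow library holds 1 UMI, and *Pou5f1* was inside their range (420.3 CPM against 46.0 to 943 CPM).

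Cardiac genes were lower in the KO streak-marker cells than in the controls with heart muscle transcripts, but not as a sum lower than in late E7.5 control replicate 1. The difference from the former is not a result, since those controls were set apart for those transcripts. The 20 genes summed to 404 CPM in the KO (343 CPM in other KO cells), 329 CPM in late E7.5 control replicate 1, 10355 and 16327 CPM in the pair with heart muscle genes, and 1218 CPM in E7.75 control replicate 2. The list had a median of −5.09 and 0 of 19 passed. Without that pair the median was −2.15 and 1 gene was called lower, where 9.89% of all genes tested were called in either direction. *Nkx2-5*, an early cardiac transcription factor, gave no UMI in the 1820 KO cells and stood at 2.35, 145, 103 and 28.8 CPM in controls. *Myl7*, the atrial myosin light chain, was present at 223 CPM in the KO, above late E7.5 control replicate 1 at 83.6 CPM and below the other 3 at 336 to 6905 CPM. It was the most abundant gene of the list in the KO cells, in counts not corrected for length. *Myl7* gave 223 of the 404 CPM in the KO and 83.6 of the 329 CPM in late E7.5 control replicate 1. The order of these sums thus rests on *Myl7*. *Mesp1* gave 0.121 CPM in the KO cells, and its neighbour *Mesp2* gave 12.9 CPM against 1.44 to 11.5 CPM. The 11.5 CPM is 1 UMI of the shallow control.

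In the remaining lists no gene passed either. Nascent mesoderm genes had a median of −1.26 over 16 genes, with 5 below all controls, against 26.1% of all genes tested, among them *Foxc2*, a paraxial mesoderm factor, at 5.44 CPM against 12.1 to 36.7 CPM. *Dll3*, a Notch ligand of presomitic mesoderm, stood at 127 CPM in the KO and at 131 and 96.5 CPM in late E7.5 control replicate 1 and E7.75 control replicate 2. Lateral plate and extra-embryonic mesoderm genes had a median of 0.13 over 18 genes. There *Foxf1*, a lateral mesoderm factor, stood at 3.51 CPM against 10.6 to 133 CPM, and *Bmp2*, a secreted signal, at 34.8 CPM against 0 to 24.2 CPM.

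The endothelial list had a median of 0.26 over 9 genes tested, with 3 above and 2 below all controls, against 8.49% and 26.1% of all genes tested. For 1 of the 3 the order against the shallow control is not resolved. The early blood and vessel regulators *Etv2* (46.8 CPM against 7.42 to 16.2 CPM) and *Kdr* (37.1 CPM against 5.22 to 12.5 CPM) lay above the listed values of all controls. In the shallow control each rests on 1 UMI, so the order is not resolved there. The mature endothelial genes *Pecam1* and *Cdh5* stood at 0.725 and 0.363 CPM in the KO, against 0 to 1.70 and 0 to 2.34 CPM in controls. Allantois genes had a median of −2.56 over 6 genes and neural ectoderm genes one of −2.06 over 11 genes. Migration genes had a median of 0.07 over 19 genes, and cell cycle genes one of 0.07 over 20 genes.

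Because late E7.5 control replicate 2 and E7.75 control replicate 1 go against the label, the comparison was repeated without them, a choice made after seeing the data. It then sets the KO of experiment 5 against 2 controls of experiment 7, so genotype and experiment cannot be told apart. Of 12774 genes 1263 were called (9.89%), and *Optc* remained. Of the presomitic list 8 of 14 genes were lower, *Hes7* by a log2 fold change of −6.43 ± 0.29, *Msgn1* by −2.89 ± 0.29 and *Tbx6* by −2.17 ± 0.26 (SE, edgeR adjusted p = 0.00833, 0.0182 and 0.0258). Of the Hox list 5 of 21 genes were lower, and of the anterior mesendoderm list 3 of 11 were higher, with *Otx2* at 1.94 ± 0.18 (SE, edgeR adjusted p = 0.0160). *Cdx2* was lower by −3.99 ± 0.13 and *Fgf5* higher by 4.11 ± 0.40 (SE, edgeR adjusted p = 0.00732 and 0.0176). The sign of *Myl7* turned, from −2.95 to 0.72, and it passed in neither fit.

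The same question was asked of streak-marker cells that also held a *T* UMI, again chosen after seeing the data. E7.75 control replicate 1 then had fewer than 10 such cells, and 3 controls stayed in the fit. Of 11595 genes 436 were called (3.76%), *Optc* among them. *Cdx2* (−3.28 ± 0.22), *Hes7* (−6.06 ± 0.75) and *Cdx1* (−4.44 ± 0.58) were lower, and *Dkk1* (2.15 ± 0.19) and *Otx2* (2.90 ± 0.28) higher (log2 fold change ± SE, edgeR adjusted p between 0.00733 and 0.0242). *T* itself, which chose these cells, *Evx1* (0.71 ± 0.82) and *Fgf8* (1.05 ± 0.27) did not pass. *Msgn1* and *Tbx6*, lower in the previous comparison, had adjusted p of 0.216 and 0.164 by edgeR.

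Of the 56 genes tested that the study names for the genotypes, which it chose on these samples, 0 passed, 10 lay above all controls and 21 below, against 8.49% and 26.1% of all genes tested. For 1 of the 10 the order against the shallow control is not resolved. *Fn1*, fibronectin, stood at 367 CPM against 115 to 282 CPM, and *Gata6* at 55.2 CPM against 23.0 to 44.1 CPM. *Smarcd3*, whose enhancer drives the eGFP reporter, stood at 5.44 CPM against 11.5 to 40.8 CPM. *Rac1* at 46.9 CPM lay below the controls, the lowest of them at 47.7 CPM, and follows the experiments as given above.

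**Figure D4:**
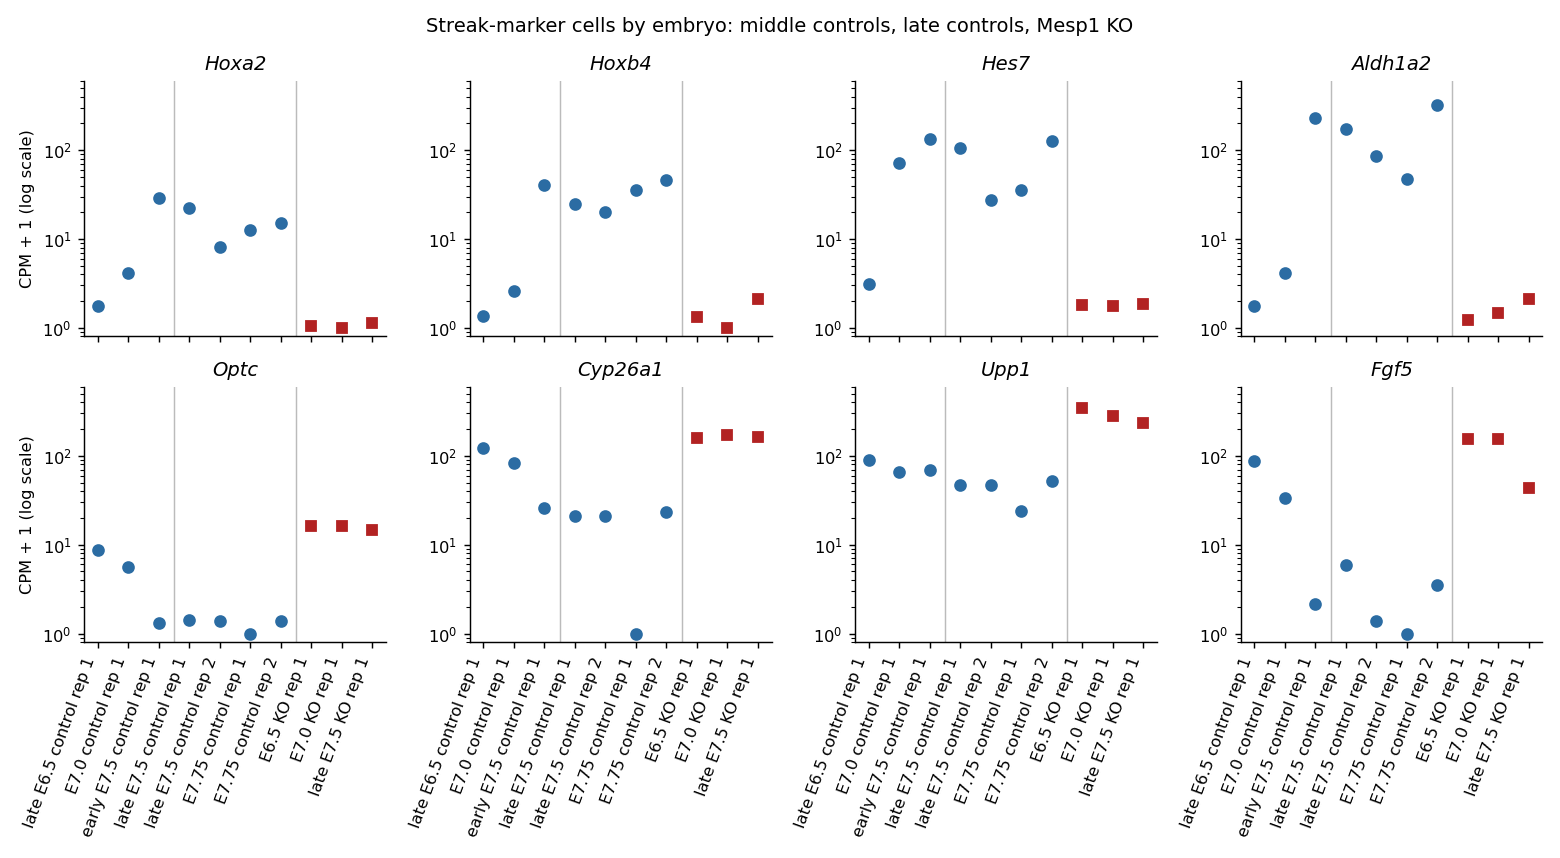
Level (CPM + 1, log axis) of 8 genes in streak-marker cells of 3 middle controls, 4 late controls and 3 *Mesp1* KO embryos (vertical lines part the 3 sets), from summed counts. *Hoxa2*, *Hoxb4*, *Hes7* and *Aldh1a2* are higher at early E7.5 than at late E6.5 in controls and lie under 3 CPM in all 3 KO embryos, and *Upp1* is at 233 to 343 CPM in KO embryos.

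For *Hes7*, *Optc* and *Cyp26a1* the late KO cells lay beyond the 3 middle controls, on the side of the youngest of these. *Hes7* went in control streak-marker cells from 2.08 CPM at late E6.5 to 70.1 CPM at E7.0 and 132 CPM at early E7.5, and stood at 0.791, 0.764 and 0.846 CPM in the E6.5, E7.0 and late KO embryos. *Optc* went in controls from 7.68 to 4.56 and 0.312 CPM and stood at 15.3, 15.2 and 13.8 CPM in the KO embryos, and *Cyp26a1* from 122 to 81.8 and 24.6 CPM, against 158, 172 and 160 CPM. For these 3 genes the 3 KO embryos lay close together while the controls spread widely with age. The 3 middle controls were all of experiment 7, the E6.5 and E7.0 KO embryos of experiment 8 and the late KO of experiment 5. Genotype and experiment thus cannot be told apart in these series.

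*Upp1* was higher in each KO embryo (343, 280 and 233 CPM) than in any control of any age, which ranged from 23.0 to 186 CPM over 12 embryos. Within experiment 8, the E6.5 and E7.0 KO embryos compared with 129 and 112 CPM in the E6.0 replicate 3 and late E6.0 controls, which were younger. *Fgf5* did change with age in the KO, from 153 and 152 CPM at E6.5 and E7.0 to 43.0 CPM. *Hoxb1* stood at 2.27, 1.88 and 13.5 CPM. No test was made of these series, since each age holds 1 KO embryo.

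The difference between genotypes was also compared with that in the other cells of the same embryos, by an interaction of cell class and genotype with the embryo as a block. Of 16863 genes tested 2 passed (0.0119%), both higher in the KO streak-marker cells beyond the other cells, and 0 were lower (0%), and 1014 (6.01%) had an unadjusted p under 0.05. Among these genes the KO streak-marker level lay outside the control range in 30% and above it in 9.77%. DESeq2 called 18, of which 11 were lower. *Cyp26a1* (chromosome 19, 37697798 to 37701536) stood at 160 CPM in KO streak-marker cells and 41.2 CPM in other KO cells, against 0 to 22.5 CPM and 15.7 to 39.0 CPM in controls (log2 difference of fold changes 2.52 ± 0.28, SE, edgeR adjusted p = 0.0235). *Zic2* (chromosome 14, 122475435 to 122479852), a zinc finger gene of epiblast and neural ectoderm, stood at 93.3 and 36.4 CPM in the KO, against 5.47 to 22.4 CPM and 8.29 to 35.1 CPM in controls (2.26 ± 0.27, SE, edgeR adjusted p = 0.0253). Both genes were higher in streak-marker than in other cells in the KO embryo and lower in the 3 deeper controls. As above, the streak-marker cells were called on all UMIs, at unlike depth in the KO and the deeper controls. In the shallow control *Cyp26a1* was at 0, which allows more than the 15.7 CPM of its other cells, and *Zic2* had 1 UMI, so neither direction is set there. Without that control their edgeR adjusted p rose to 0.146 and 0.209, and without it and late E7.5 control replicate 2 it was 0.0231 and 0.0482.

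Genes next in order were *Kdr*, *Dynlrb2*, *Upp1*, *Socs2* and *Lefty2* on the higher side (edgeR adjusted p between 0.0522 and 0.0908) and *Sord*, *Cited1*, *Hoxb5*, *Spin2* and *Hand1* on the lower (0.194 for each). *Kdr*, the VEGF receptor of early mesoderm and endothelium, stood at 37.1 CPM in KO streak-marker cells and 16.6 CPM in other KO cells, while in the 3 deeper controls it was lower in the streak-marker cells. Hox genes had a median interaction of −2.22 over 21 genes and 20 were negative, beside 0.01 over all genes tested. In other lists the interaction went against the difference in the streak-marker cells alone. Its median was 0.85 for streak genes (17 of 20 positive), 0.77 for presomitic and paraxial genes (11 of 14) and 0.91 for nascent mesoderm genes (11 of 16), and 0 genes passed in each. In KO streak-marker cells *Hoxb1* (13.5 CPM) nonetheless exceeded the other KO cells (4.18 CPM).

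Among controls, the streak-marker cells of the 4 late and 3 middle embryos differed in no gene that passed. The middle ones were all of experiment 7 and the late ones of experiments 4, 5 and 7. Of 12778 genes tested 0 were higher (0%) and 0 lower (0%) by edgeR, 711 (5.56%) had an unadjusted p under 0.05, and DESeq2 called 83. The 2 groups did not overlap in 8.32% of the genes, with the late controls above in 2% and below in 6.32%. *Nkx2-5*, *Mef2c*, *Ankrd1* and *Nebl* of the cardiac list lay above all middle controls in all 4 late ones, and the list's median was 5.49. Without the 2 late controls that go against the label, 0 of 13299 genes passed by edgeR (529 had an unadjusted p under 0.05) and the cardiac median was 2.38 over 17 genes. The genes with the smallest p were *Hesx1*, *Foxd4*, *Spp2*, *Fam174b* and *Apoc3* on the higher and *Etv5*, *Gls2*, *Flt1*, *Adcyap1r1* and *Fzd9* on the lower side (edgeR adjusted p = 0.74 for each). *Etv5*, a target of FGF signalling, stood at 46.5 to 55.8 CPM in middle and 23.0 to 34.0 CPM in late controls.

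Within the late KO embryo, cells with more of the 5 markers also carried more of some other genes at equal depth. *Upp1* was found in 6.01% of thinned KO cells with no marker, 20.7% with 1, 37.6% with 2, 44.1% with 3 and 53.8% with 4 or 5 markers. *Cyp26a1* was found in 5.25%, 15.2%, 26.2%, 39.5% and 41.5%, and *Dkk1* in 4.51%, 11.3%, 17.3%, 18.4% and 30.8%. *T* was found in 4.64%, 17.5%, 23.9%, 23.0% and 27.7%, with overlapping intervals from 2 markers upward. *Foxa2* was found in 2.52% of cells with no marker and in 3.08% to 5.08% of the others, and *Otx2* in 7.69% to 10.2% throughout, far smaller differences than those of *Upp1*. *Upp1*, *Cyp26a1* and *Dkk1* were named above for high levels in the streak-marker cells of this embryo, so their rise adds no separate support. All these cells come from 1 embryo and are not replicates.

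**Figure D5:**
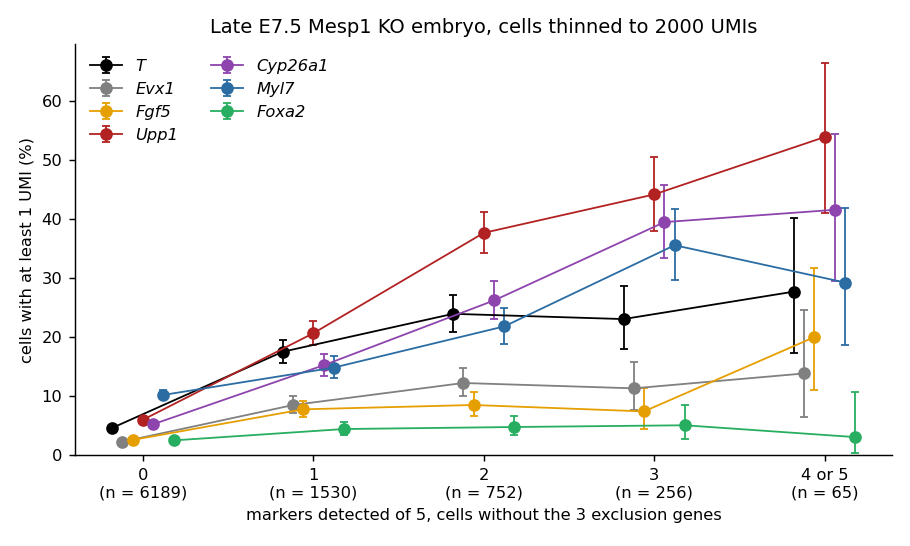
Percentage of cells of the late KO embryo with at least 1 UMI of each of 7 genes, by the number of rule markers in the cell, on cells thinned to 2000 UMIs and without the exclusion genes; bars are exact 95% intervals and n the number of cells. *Upp1* goes from 6.01% to 53.8% and *Foxa2* lies between 2.52% and 5.08%.

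The eGFP reporter was found in few KO streak-marker cells. With all UMIs, eGFP was found in 5.99% of the KO cells and in 13.2%, 35.1%, 0% and 24.8% of those in late E7.5 control replicates 1 and 2 and E7.75 control replicates 1 and 2. At 2000 UMIs it was found in 2.14% of KO streak-marker cells (23 of 1073) and 1.72% of other KO cells, and in 0 of 20, 1 of 8, 0 of 6 and 1 of 5 control cells, which does not allow a comparison (exact permutation test over embryos, two-sided, p = 1). Ai14 was found in 9.89% of KO streak-marker cells and 7.07% of other KO cells with all UMIs. Late E7.5 control replicate 1, which lacks that reporter, still showed Ai14 in 2.99% of the streak-marker cells and 2.40% of the others.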

How the data were processed

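The authors used Cell Ranger 3.0.2 with an mm10 reference extended by both reporter sequences, and deposited UMI counts per gene and cell barcode. Genotype, age and experiment number came from the labels, and alleles and reporters from the paper. Kept barcodes had 200 to 7000 genes, under 50000 UMIs and a mitochondrial share under 10%. The members and gene lists were chosen with earlier results of these data known.

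Counts of the streak-marker cells were summed per embryo with at least 10 such cells. They were tested with edgeR 4.0.16 (quasi-likelihood, TMM, filterByExpr, Benjamini-Hochberg, threshold 0.05) without the 8 rule genes and the 2 reporters, and with DESeq2 1.42.0 as an alternative. SE is the log2 fold change divided by the root of F. Embryos are the replicates, and the lone KO embryo is assumed to vary like controls. Late and middle control comparisons share the late controls. Shares were compared by an exact permutation test over embryos. Intervals are exact Clopper-Pearson at 95%; a count of 0 allows 3 counts, and both cover counting error only.

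Cells were thinned to 2000 UMIs without replacement. Doublets were scored against simulated pairs within each library, marking 0.8% per 1000 barcodes. The edgeR fits were tested on simulated counts. Named genes are list genes and, per fit and direction, up to 10 called genes outside the control range ordered by fold change, with the 5 of smallest p given as not called where fewer than 5 passed. Sex-linked genes of a fixed list were left out, and 1 gene that passed is not reported here. Gene positions are those of GENCODE vM21 on mm10.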

Additional observations from a re-analysis of the deposited data

Results flagged for a closer look

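Of 19 sets of 4 control values that were checked for a value far from the other 3, 6 held one, and chance gives about 1 in 20. The thinned share of streak-marker cells in late E7.5 control replicate 1 was 0.309% against 0.0395% to 0.0487% in the other 3. Its share of streak-marker cells with *Lhx1*, 51.9%, lay below the 78.4% to 82.4% of the other 3. The remaining 4 concern the shallow E7.75 control replicate 1, with 17 streak-marker cells, where *Crabp2* stood at 57.4 CPM, *Upp1* at 23.0 CPM, and *Cyp26a1* and *Optc* at 0 CPM, each on 5 UMIs or fewer.

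The genotype difference was larger in streak-marker cells than in the other cells of the same embryos for *Cyp26a1*, by 2.52 on the log2 scale, and for *Zic2*, by 2.26, by the edgeR interaction test. These cells were called on all UMIs, at unlike depth in the KO and the deeper controls.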

How the results depend on the processing

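The KO share of streak-marker cells exceeded the control mean under all 17 alternatives, by 2.32 to 15.8 percentage points. The lower share of late than of middle controls kept its direction, but with at least 3 markers the difference of −2.61 had an exact permutation p of 0.0571, with only late E7.5 control replicate 1 and E7.75 control replicate 2 as late controls, chosen after seeing the data, −8.23 had one of 0.2, and with an embryo left out it ranged from −12.3 to −2.84 in designs too small to pass. The eGFP difference kept its sign.

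Counts of called genes moved most, and the causes were not tested. For KO against controls, with 2 calls, there were 44 with DESeq2, 16 without the low-count filter, 0 with late E7.5 controls only (1074 at an unadjusted p under 0.05), 82 with all libraries, 0 with doublets left out (1402), 1410 with at least 3 markers, where 2 controls remain, 9 without extra-embryonic ectoderm cells, and 1 to 736 with an embryo left out (736 without late E7.5 control replicate 2, 282 without E7.75 control replicate 1, 44 without late E7.5 control replicate 1, 1 without E7.75 control replicate 2). After seeing the data, leaving out late E7.5 control replicate 2 and E7.75 control replicate 1 together gave 1263, with all controls left from experiment 7 and the KO from experiment 5, cells with a *T* UMI gave 436, and the experiment as a term, with 1 residual degree of freedom, gave 0 (1385). The interaction, with 2 calls, gave 18 with DESeq2, 12 without the filter, 22 without extra-embryonic ectoderm cells, 19 and 82 under those 2 later choices, and 0 to 476 with an embryo left out (476 without late E7.5 control replicate 1, 217 without late E7.5 control replicate 2, 48 without E7.75 control replicate 2, 0 without E7.75 control replicate 1, where 1003 had an unadjusted p under 0.05). Late against middle controls, with 0 calls, gave 83 with DESeq2. Fold changes of *Optc*, *Cyp26a1* and *Zic2* kept their sign, at 5.37 to 9.83, 2.36 to 3.79 and 2.01 to 2.78. The range for *Optc* holds no DESeq2 value.

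Membership called on thinned cells left 1 control with at least 10 cells, so the KO fits could not be run that way. No paired analysis was possible because the KO embryo shares its experiment with E7.75 control replicate 1 only. The fit with the experiment as a term is given above.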
